A study of Mus musculus with 10 samples.

Results

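The CCR2 monocyte recruitment axis is a set of 7 genes, namely the chemokine ligands Ccl2, Ccl7, Ccl8 and Ccl12, their receptor Ccr2, and the Ly6C genes Ly6c1 and Ly6c2. Every probeset whose gene symbols included one of these names was taken, which gave 7 of the 23410 probesets with at least 1 symbol (28856 in all). The 5 ligand and receptor probesets carried 1 symbol each, and the other 2 were each annotated to both Ly6c2 and Ly6c1, so that values for the Ly6C genes cannot be assigned to either gene.

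RNA from the perfused whole brains of 10 female C57BL/6 mice aged 6 to 8 weeks was measured on Affymetrix GeneChip Mouse Gene 1.0 ST arrays, with 1 array per mouse. Aldara-treated mice (n = 5) received 80 mg of Aldara cream, which holds 5% imiquimod, an agonist of the RNA sensor TLR7, on shaved dorsal skin. Control mice (n = 5) received 80 mg of an aqueous cream in the same way, and the labels name no engineered allele in either group. There were 5 applications, 24 h apart, and brains were taken 24 h after the last. Aldara cream and control cream differ in more than imiquimod, since the Aldara vehicle also holds isostearic acid. Values are log2 expression values normalised by RMA, on which a difference of 1 is a doubling, and they ran from 4.73 to 14.56 over all probesets. The median log2 value lay between 8.10 and 8.14 on control arrays and between 8.16 and 8.19 on Aldara arrays, the median log2 difference of all tested probesets was -0.041, and Aldara replicate 5 often stood above the other Aldara-treated mice, so the fold of each member is given with and without it. The tissue label was borne out by astrocyte genes, with log2 values of at least 9.19 on every array for all 6 markers measured.

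Chemokines are small secreted proteins that bind G protein-coupled receptors and direct leukocytes along a gradient. CCR2 is the receptor by which classical monocytes, those with much Ly6C on their surface, leave the bone marrow for the blood and enter inflamed tissue. CCL2 and CCL7 are its best known ligands, CCL12 is a mouse ligand close to CCL2, and CCL8 of the mouse acts mainly through CCR8 in type 2 inflammation of skin. In inflamed brain the ligands are known to be made by astrocytes, microglia, endothelium and infiltrating myeloid cells. Ly6c2 is the Ly6C gene of monocytes, whereas Ly6c1 is also strongly expressed by brain endothelium.

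The ligand genes lie in the CC chemokine cluster of chromosome 11, where Ccl12 and Ccl8 are neighbours. The stretches upstream of the RefSeq starts of Ccl12 and Ccl8 (RefSeq, build GRCm38.p6, plus strand) are shown because these neighbours gave different results. The stretch before Ccl12 is chr11:82101595-82101844 and that before Ccl8 is chr11:82114935-82115184, both shown 5′ to 3′ up to the base before the start, with TATAAA, the core letters of a TATA box, in capitals.
Ccl12: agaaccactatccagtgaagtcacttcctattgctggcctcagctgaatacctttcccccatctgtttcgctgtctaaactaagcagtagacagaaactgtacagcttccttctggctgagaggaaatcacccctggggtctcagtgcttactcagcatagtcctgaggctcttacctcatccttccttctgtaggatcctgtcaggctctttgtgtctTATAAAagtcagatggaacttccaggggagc
Ccl8: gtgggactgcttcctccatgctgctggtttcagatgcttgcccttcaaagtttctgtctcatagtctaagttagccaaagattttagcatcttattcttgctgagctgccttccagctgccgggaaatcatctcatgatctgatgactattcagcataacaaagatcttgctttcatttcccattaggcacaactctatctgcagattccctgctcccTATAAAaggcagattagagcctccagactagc
The TATAAA letters began 31 bases before the start of Ccl12 and 32 bases before that of Ccl8, and were present on either strand in 13% of 27025 promoters of the same length. This motif was added after the sequences had been seen. The other motifs were searched on both strands in the 250 bases before the RefSeq start of each gene, the full window also where it overlaps an annotated transcript, as for Ccr2, and is not shown. Among them were the interferon-stimulated response element as GAAA, any 2 bases and GAAA again (in 3.04% of all promoters), the STAT site as TTCNNNGAA (7.18%), the AP-1 site as TGACTCA (4.43%) and the NF-kB consensus (7.01%). None of these had a match in the windows of Ccl12, Ccl8, Ccr2, Ly6c1 or Ly6c2, which says only that those letters are not in these windows. The windows of Ccl2 and Ccl7 were not analysed here.

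Aldara-treated mice had modestly higher brain levels of 3 of the 4 ligand genes, by 1.40-fold to 1.60-fold, while Ccl8 did not pass the test. Ccr2 was 2.45-fold higher, and both Ly6C probesets were 2.37-fold and 2.53-fold higher. Altogether 6 of the 7 member probesets were higher at an adjusted p under 0.05 from limma and 0 were lower. Over all 23410 probesets tested, 12.4% were higher and 21% were lower by the same rule. For the same 6 members every Aldara-treated mouse lay above every control mouse, which held for 10.5% of all probesets. In whole brain, more cells of a type and more RNA per cell cannot be told apart.

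**Figure D1:**
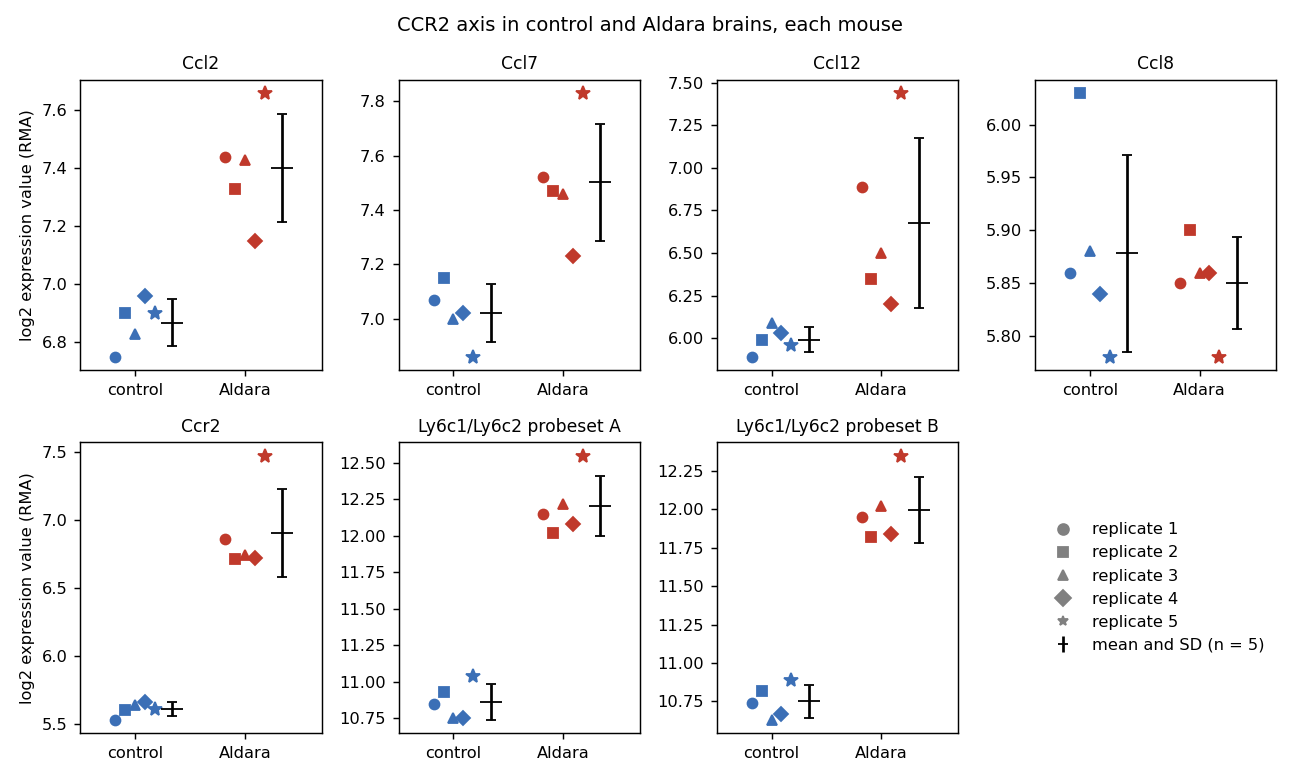
Log2 expression value (RMA) of each member probeset in each of the 10 mice, with marker shapes for replicate numbers within a group and bars for the mean and SD (n = 5 per group); each panel has its own axis range. Aldara-treated mice sit above control mice without overlap in every panel but that of Ccl8, and Aldara replicate 5 is the highest mouse in those 6 panels.

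Ccl2 encodes the ligand after which the axis is usually named. Its log2 values (probeset 10379511) were 6.75, 6.90, 6.83, 6.96 and 6.90 in control mice 1 to 5 and 7.44, 7.33, 7.43, 7.15 and 7.66 in Aldara-treated mice 1 to 5. The groups did not overlap, with a gap of 0.19 between the highest control mouse and the lowest Aldara-treated mouse, replicate 4. The mean went from 6.87 ± 0.08 (SD, n = 5) to 7.40 ± 0.18 (SD, n = 5), a log2 difference of 0.53 (standard error 0.08, adjusted p = 2.4e-04 from limma). This is 1.45-fold, with a 95% interval of 1.29 to 1.63, and 1.39-fold without Aldara replicate 5.

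Ccl7, whose product also binds CCR1 and CCR3, moved by a similar amount. Its log2 values (probeset 10379518) were 7.07, 7.15, 7.00, 7.02 and 6.86 in control mice and 7.52, 7.47, 7.46, 7.23 and 7.83 in Aldara-treated mice. Again replicate 4 was the lowest and replicate 5 the highest Aldara-treated mouse, and the gap between groups was 0.08. The log2 difference was 0.48 (standard error 0.09, adjusted p = 0.0016 from limma), or 1.40-fold with a 95% interval of 1.22 to 1.61 and 1.32-fold without Aldara replicate 5.

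Ccl12 varied most among the Aldara-treated mice. Its log2 values (probeset 10379530) were 5.89, 5.99, 6.09, 6.03 and 5.96 in control mice and 6.89, 6.35, 6.50, 6.20 and 7.44 in Aldara-treated mice. Replicates 1 and 5 were well above the other Aldara-treated mice, and the groups were 0.11 apart. The SD was 0.08 in control mice and 0.50 in Aldara-treated mice, and the log2 difference was 0.68 (standard error 0.19, adjusted p = 0.014 from limma), or 1.60-fold with a 95% interval of 1.21 to 2.13. Without Aldara replicate 5 it was 1.41-fold and still passed, and by the methods' t-test, which does not share the spread between probesets, it missed the threshold (adjusted p = 0.051, against 0.0054 to 0.038 under the other alternatives).

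Ccl8 stood apart from the other ligands. Its log2 values (probeset 10379535) were 5.86, 6.03, 5.88, 5.84 and 5.78 in control mice and 5.85, 5.90, 5.86, 5.86 and 5.78 in Aldara-treated mice. The groups overlapped over almost their whole range, and Aldara replicate 5, the highest mouse for the other ligands, was the lowest here. The log2 difference was -0.03 (standard error 0.04, adjusted p = 0.66 from limma), and its 95% interval, 0.917-fold to 1.05-fold, did not reach the increase of any other member. Whether the probeset stood above background is not known, since no scanner values were used.

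Ccr2, the receptor, had the widest separation between groups of all members. Its log2 values (probeset 10590631) were 5.53, 5.60, 5.64, 5.66 and 5.61 in control mice and 6.86, 6.71, 6.74, 6.72 and 7.47 in Aldara-treated mice. Apart from replicate 5, which stood above them, the Aldara-treated mice lay between 6.71 and 6.86, and the gap to control mice was 1.05. The mean went from 5.61 ± 0.05 (SD, n = 5) to 6.90 ± 0.33 (SD, n = 5), a log2 difference of 1.29 (standard error 0.12, adjusted p = 8.7e-06 from limma). This was 2.45-fold with a 95% interval of 2.03 to 2.95, and 2.21-fold without Aldara replicate 5. Only 1.59% of all probesets tested were both called and at least 2-fold higher.

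Both Ly6C probesets, here called A and B, gave nearly the same values, as they may measure transcripts of the same genes. For probeset A (10429568) the log2 values were 10.85, 10.93, 10.75, 10.75 and 11.04 in control mice and 12.15, 12.02, 12.22, 12.08 and 12.55 in Aldara-treated mice. For probeset B (10429573) they were 10.74, 10.82, 10.63, 10.67 and 10.89 in control mice and 11.95, 11.82, 12.02, 11.84 and 12.35 in Aldara-treated mice. On both, control replicate 5 and Aldara replicate 5 were the highest of their groups, and the groups were 0.98 and 0.94 apart. Probeset A rose by a log2 difference of 1.34 (standard error 0.09, adjusted p = 4.5e-07 from limma), or 2.53-fold with a 95% interval of 2.21 to 2.91. The log2 difference of probeset B was 1.24 (standard error 0.09, adjusted p = 7.8e-07 from limma), or 2.37-fold with a 95% interval of 2.07 to 2.72. Without Aldara replicate 5 the folds were 2.39 and 2.23.

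Since Ly6c1 is an endothelial gene as well, the markers of the cell types that express Ly6C are given beside these values. Of 15 brain endothelial markers, 12 were higher and 0 lower, with a median log2 difference of 0.55. Among them Pecam1, an adhesion molecule of endothelial junctions, rose by 0.96 (standard error 0.05), Kdr, the main VEGF receptor, by 0.73 (standard error 0.04) and Esam, another junctional adhesion molecule, by 0.61 (standard error 0.04). The largest endothelial difference, that of Pecam1, was below that of either Ly6C probeset. Averaged over the list, the log2 difference from the control mean was -0.04 to 0.06 in control mice and 0.44 to 0.55 in Aldara-treated mice, with replicate 5 at 0.45. Of 14 classical monocyte markers, 9 were higher and 0 lower, with a median of 0.68, and the mean over the list was 1.15 to 1.30 in Aldara replicates 1 to 4, 1.40 in replicate 5 and -0.03 to 0.08 in control mice. Of 9 T and NK cell markers, 7 were higher and 1, Cd4, was lower, with a median of 0.39, and the mean over the list was 0.44 to 0.56 in Aldara replicates 1 to 4 and 0.63 in replicate 5. The part of endothelium, monocytes and lymphocytes in the Ly6C values was not tested.

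**Figure D2:**
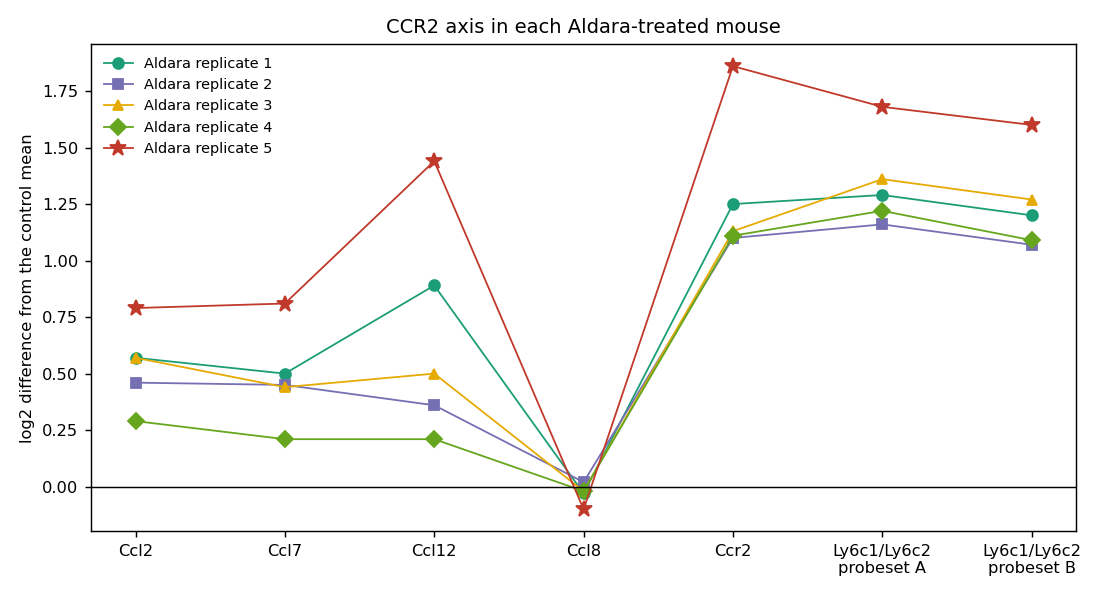
Log2 difference of each Aldara-treated mouse from the mean of the 5 control mice, for each member probeset; lines join the values of 1 mouse and carry no order between genes. Aldara replicate 5 is the highest for 6 of the 7 probesets, at 1.86 for Ccr2 and 1.44 for Ccl12, and replicate 4 is the lowest for Ccl2, Ccl7 and Ccl12.

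To relate ligands and monocyte genes, the mice were ordered within the Aldara group. From highest to lowest the order was replicate 5, 1, 3, 2 and 4 for Ccl2 and Ccl12, and 5, 1, 2, 3 and 4 for Ccl7. For Ccr2 it was 5, 1, 3, 4 and 2, and for both Ly6C probesets 5, 3, 1, 4 and 2. Thus replicate 5 was the highest mouse for the 3 raised ligands, the receptor and the Ly6C probesets, and replicates 2 and 4 always held 2 of the 3 lowest places. The array weight, which is lower where an array departs more from its group, was 0.463 for Aldara replicate 5 and 0.798 to 1.483 for the other arrays. With 1 array per mouse, the mouse and its array cannot be told apart. The spread among mice differed between genes. From the lowest to the highest Aldara-treated mouse, the log2 difference from the control mean went from 0.21 to 1.44 for Ccl12, from 0.29 to 0.79 for Ccl2 and from 1.10 to 1.86 for Ccr2. Apart from replicate 5, Ccr2 lay between 1.10 and 1.25, so that neighbours in this order differed by little. The arrays fell into 2 groups of 5, and with so few mice in each no correlation between ligands and monocyte genes is given.

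Whether members changed by different amounts was tested on the difference of their log2 values within each array, with an exact two-sided permutation test over the mice and adjustment over 21 pairs. Of these, 16 passed. The receptor rose more than its ligands. Relative to Ccr2, the change was -0.76 for Ccl2 (95% interval -0.97 to -0.54), -0.81 for Ccl7 (-1.02 to -0.59) and -0.61 for Ccl12 (-0.84 to -0.37), each with an adjusted exact p of 0.011. Here 0.0079, before adjustment, is the smallest exact p that 5 mice against 5 can give. The same ligands also rose less than both Ly6C probesets, with differences of -0.86 to -0.56. Ccl8 differed from every other member, for example from Ccl12 by 0.71 (Ccl12 minus Ccl8, 95% interval 0.15 to 1.27, adjusted exact p = 0.011). The compared probesets differed in brightness, with control means of 5.61 for Ccr2, 5.99 for Ccl12, 6.87 for Ccl2 and 10.86 for probeset A. Whether brightness altered the size of these differences, or of those with other chemokine genes below, was not tested.

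The raised ligands were not told apart from each other. The difference in change was 0.05 for Ccl2 minus Ccl7 (95% interval -0.11 to 0.21, adjusted exact p = 0.54), -0.15 for Ccl2 minus Ccl12 (-0.50 to 0.21, adjusted exact p = 0.51) and -0.20 for Ccl7 minus Ccl12 (-0.54 to 0.14, adjusted exact p = 0.31). Nor was Ccr2 told apart from Ly6C probeset A (-0.05, 95% interval -0.27 to 0.17, adjusted exact p = 0.60) or probeset B (0.05, -0.16 to 0.25, adjusted exact p = 0.60). These intervals leave room for differences of up to 0.54 between ligands. Without Aldara replicate 5, the difference was -0.02 for Ccl2 minus Ccl12, -0.09 for Ccl7 minus Ccl12 and -0.11 for Ccr2 minus probeset A. The change of probeset A exceeded that of probeset B by 0.10 (95% interval 0.06 to 0.13, adjusted exact p = 0.011).

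The CCR2 axis was then set beside other chemokine genes of the same arrays, in 9 pairs adjusted together, all of which passed. Ccr2 rose more than Cxcr4, the CXCL12 receptor of many leukocytes, by 0.35 (95% interval 0.07 to 0.62, adjusted exact p = 0.016). It rose more than Cx3cr1, the fractalkine receptor of microglia and patrolling monocytes, by 0.58 (95% interval 0.02 to 1.13, adjusted exact p = 0.0089; 0.34 without Aldara replicate 5, with the same adjusted p), and more than Cxcr3, a receptor of activated T and NK cells, by 0.98 (0.62 to 1.34, adjusted exact p = 0.0089). Ccr1, a receptor for CCL3, CCL5 and CCL7, had a log2 difference of 0.03, and Ccr2 exceeded it by 1.26 (0.97 to 1.55, adjusted exact p = 0.0089). Among receptors compared here, Ccr2 thus had the largest change.

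Ccl2 in contrast changed far less than the strongly induced ligands. Ccl5, which attracts T cells and monocytes, had a log2 difference of 4.68 (standard error 0.13) and rose more than Ccl2 (Ccl2 minus Ccl5 -4.15, 95% interval -4.49 to -3.80, adjusted exact p = 0.0089). Ccl3, a macrophage inflammatory protein, had a log2 difference of 4.22 (standard error 0.10). Cxcl9 and Cxcl10, the CXCR3 ligands induced by interferon, rose by 2.68 (standard error 0.18) and 2.08 (standard error 0.25). The change of Ccl2 relative to these 3 was -3.69, -2.14 and -1.55 (adjusted exact p = 0.0089 each). The paper had picked Ccl3, Ccl5, Cxcl9 and Cxcl10 from these same arrays for their increase. That Ccl2 rose less than they did is therefore a description of size, and the p-values are not independent support. Cx3cl1, the neuronal fractalkine, was lower in Aldara-treated mice by -0.22 (standard error 0.03), and Ccl2 exceeded it by 0.75.

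**Figure D3:**
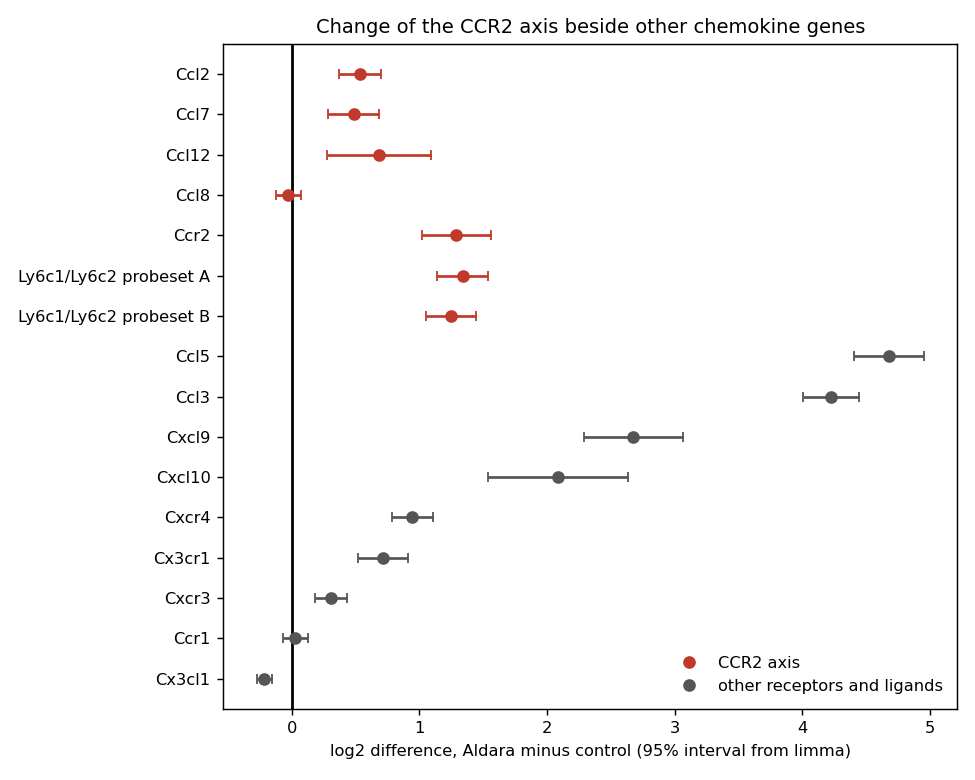
Log2 difference, Aldara minus control, with its 95% interval from limma, for the 7 member probesets (red) and 9 other chemokine ligands and receptors (grey). The 3 raised CCR2 ligands lie between 0.48 and 0.68, Ccr2 and the Ly6C probesets between 1.24 and 1.34, Ccl8 at -0.03, and Ccl3 and Ccl5 above 4.

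Genomic neighbours of the members did not all move with them. Gene order was taken from a RefSeq table of build GRCm38.p6, and no distance is given. In the chromosome 11 cluster the order is Ccl2, Ccl7, Ccl11, Ccl12, Ccl8 and Ccl1. Ccl11, the eosinophil chemokine eotaxin, lies between Ccl7 and Ccl12 and had a log2 difference of -0.05 (standard error 0.04, adjusted p = 0.42 from limma). Ccl1, a CCR8 ligand at the other end, also had -0.05 (standard error 0.06, adjusted p = 0.53). So the ligands that rose, Ccl2, Ccl7 and Ccl12, are interleaved with genes that did not pass the test.

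On chromosome 9, the genes beside Ccr2 are chemokine receptors too. Ccr1, Ccr1l1 and Ccr3, which precede Ccr2, had log2 differences of 0.03, 0.05 and -0.05, and none passed. On chromosome 15, the Ly6 genes near Ly6c1 and Ly6c2 encode small GPI-anchored surface proteins. Ly6e, induced by interferon, rose by 1.11 (standard error 0.05, adjusted p = 1.4e-08 from limma), and Ly6i by 1.50 (standard error 0.30, adjusted p = 0.0023), with a value of 9.03 in Aldara replicate 5 and at most 7.35 in the other Aldara-treated mice. Ly6a2 rose by 0.42 (standard error 0.11, adjusted p = 0.011). Ly6g, the neutrophil marker of the cluster, had a log2 difference of 0.09 (standard error 0.06, adjusted p = 0.26), and Ly6h, a brain gene, was lower by -0.16 (standard error 0.04, adjusted p = 0.0096). Genes this similar can share probes, and cross-hybridisation between Ly6 genes was not tested.

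**Figure D4:**
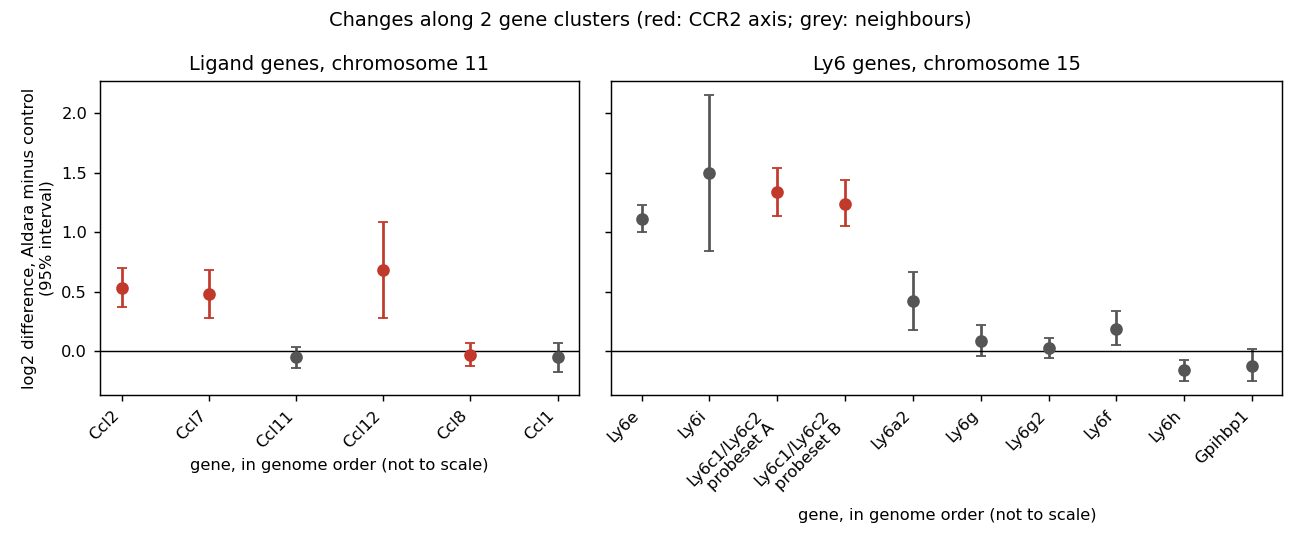
Log2 difference, Aldara minus control, with its 95% interval, along the CC ligand cluster of chromosome 11 and the Ly6 cluster of chromosome 15, in genome order and not to scale (red, members; grey, neighbours). Ccl11, Ccl8 and Ccl1 sit near 0 beside the raised Ccl2, Ccl7 and Ccl12, and the largest increases among Ly6 genes stand at the Ly6e end of the panel.

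Other receptors and scavengers of the ligands did not pass the test. For the 5 genes measured, limma called 0, also at an unadjusted p under 0.05, as did the methods' t-test, while 1 was lower with centred or quantile-normalised arrays. They had a median log2 difference of -0.05, close to that of all probesets, -0.041. Besides Ccr1 these were Ccr3 (-0.05, standard error 0.04), Ccr8, the receptor of mouse CCL8 (-0.05, standard error 0.04), Ackr1, the chemokine-binding Duffy antigen of venules and red cells (-0.01, standard error 0.04), and Ackr2, which degrades inflammatory CC chemokines (-0.09, standard error 0.04). The other inflammatory CC ligands behaved differently, with 5 of 7 higher, 0 lower and a median of 1.26. In addition to Ccl5 and Ccl3, Ccl9, a CCR1 ligand made by myeloid cells, rose by 2.18 (standard error 0.12).

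Genes that carry the signal from CCR2 were mixed. Of 8 measured, 5 were higher and 1 lower, with a median of 0.48. Vav1, an exchange factor of blood cells, rose by 2.06 (standard error 0.08), Rac2, the leukocyte Rac GTPase, by 2.02 (standard error 0.09) and Pik3cg, the kinase activated by G protein-coupled receptors in leukocytes, by 1.76 (standard error 0.09). Widely expressed members moved less, with 0.40 for the G protein subunit Gnai2 (standard error 0.03), -0.01 for Rac1 (standard error 0.03, adjusted p = 0.76 from limma) and -0.15 for the arrestin Arrb1, which was lower (standard error 0.03). The first 3 are leukocyte genes, and leukocyte markers were higher in the same mice. Their part in these values was not tested.

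Regulators of Ccl2 transcription and mRNA moved by small amounts. Of 10 measured, 5 were higher and 1 was lower, with a median of 0.15. Stat3, which transmits signals of the IL-6 family, rose by 0.63 (standard error 0.04), Zfp36, which destabilises chemokine mRNAs, by 0.35 (standard error 0.04) and Rela, the NF-kB subunit, by 0.24 (standard error 0.04). Jun, an AP-1 subunit, was lower by -0.19 (standard error 0.06, adjusted p = 0.039 from limma), a call that was lost when any of control replicates 2, 3 or 4 or Aldara replicates 1, 2, 3 or 4 was left out. Genes by which monocytes attach to vessels were higher in 6 of 7 cases, with a median of 0.58. Itgb2, the shared chain of the leukocyte integrins, rose by 2.19 (standard error 0.10), Vcam1, the endothelial ligand of integrin VLA-4, by 0.74 (standard error 0.06), and Selplg, the selectin ligand of leukocytes, by 0.64 (standard error 0.05).

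Markers of myeloid cells differed widely in the size of their change. Among classical monocyte markers, Ms4a6c, a membrane protein of monocytes and macrophages, rose by 4.46 (standard error 0.12), Lyz2, the myeloid lysozyme, by 3.62 (standard error 0.09) and Itgam, the CD11b chain, by 1.95 (standard error 0.09), whereas F13a1 had -0.05 (standard error 0.05, adjusted p = 0.48 from limma) and Vcan 0.05 (standard error 0.05, adjusted p = 0.44). Many of these genes are also expressed by macrophages and activated microglia. Tissue macrophage markers were higher in 8 of 9 cases, with a median of 1.66, among them Ms4a7 by 4.04 (standard error 0.11), the F4/80 gene Adgre1 by 3.66 (standard error 0.09) and the lysosomal Cd68 by 1.96 (standard error 0.06). Of 8 non-classical monocyte markers, 4 were higher and 0 lower, with a median of 0.14, led by Pglyrp1, a peptidoglycan-binding protein (1.13, standard error 0.06), Itgal, the LFA-1 chain (1.04, standard error 0.09), and Adgre4, an adhesion receptor of monocytes (0.46, standard error 0.06).

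Resident myeloid cells and granulocytes gave other pictures. Among 9 border macrophage markers, 1 was higher and 3 lower, with a median of -0.08. Over all probesets tested, 12.4% were higher and 21% lower, with a median of -0.041, so these counts are near the background. The exception was Stab1, a scavenger receptor, at 1.01 (standard error 0.07), while Cbr2, a carbonyl reductase, was lower by -0.27 (standard error 0.04), the haemoglobin scavenger Cd163 by -0.20 (standard error 0.04) and Lyve1, a hyaluronan receptor, by -0.15 (standard error 0.05). Of 9 microglial markers 6 were higher and 2 lower, with a median of 0.37. Olfml3 rose by 1.10 (standard error 0.06) and Tmem119 by 0.86 (standard error 0.08), while Siglech, a lectin of microglia, was lower by -0.77 (standard error 0.07) and Gpr34 by -0.27 (standard error 0.03). Neutrophil markers had a median of 0.05. Of 12, only the receptor Csf3r, which monocytes also express, was called higher by limma, by 1.14 (standard error 0.08), although other alternatives called 0 to 4 of them higher. Granule proteins such as Mpo (-0.04, standard error 0.04) and S100a8 (0.09, standard error 0.04) did not pass.

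Lymphoid, glial and blood markers complete the lists. Among T and NK cell markers, Nkg7, a granule protein, rose by 1.69 (standard error 0.15), the protease Gzma by 1.36 (standard error 0.09) and Cd8b1 by 0.39 (standard error 0.03). Plasmacytoid dendritic cell markers were higher in 1 of 6 cases and lower in 1, which was Siglech, with a median of -0.05. The gene that rose was Bst2, which interferon induces in many cells, by 1.97 (standard error 0.17). Astrocyte markers were split, with 3 of 6 higher and 3 lower, and a median of 0.06. Gfap, the filament protein of reactive astrocytes, rose by 1.73 (standard error 0.04) and the water channel Aqp4 by 0.36 (standard error 0.03), and the glutamate transporter Slc1a2 was lower by -0.57 (standard error 0.04). The other markers past the threshold were Aldh1l1, which was higher, and Slc1a3 and Gja1, which were lower. Of 5 red cell and platelet markers, 1 was higher, the platelet chemokine Ppbp, by 0.27 (standard error 0.07), with a median of -0.05. Of 12 Ly6 genes other than the members, 3 were higher (Ly6e, Ly6i and Ly6f) and 3 lower (Ly6h, Lynx1 and Psca), with a median of -0.06. For comparison with these lists, 12.4% of all probesets tested were higher and 21% lower, with a median of -0.041.

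**Figure D5:**
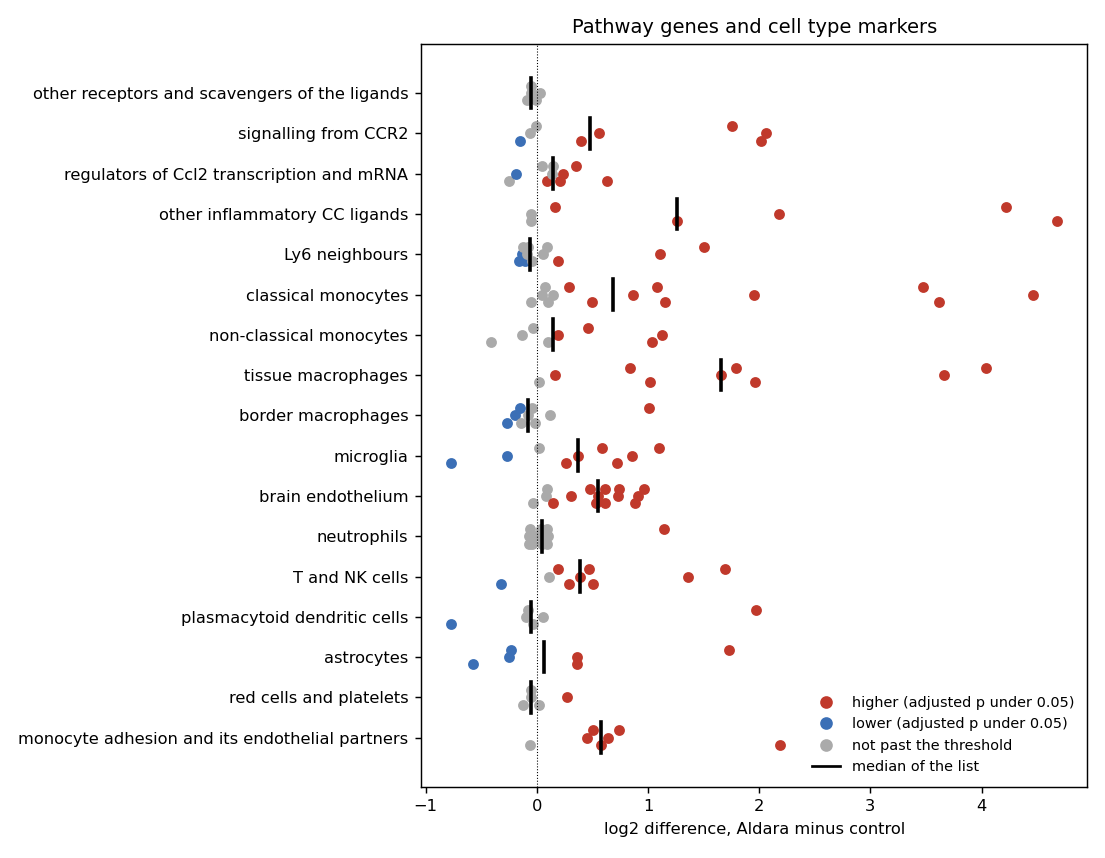
Log2 difference, Aldara minus control, of each measured gene in 17 lists of pathway genes and cell type markers, coloured by whether limma's adjusted p was under 0.05 (red, higher; blue, lower; grey, not past the threshold), with a line at the median of each list. Tissue macrophage markers have the highest median, 1.66, and the other receptors and scavengers of the ligands lie near 0.

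The genes whose values over the 10 arrays were most like those of each raised member were found by the root mean square (RMS) of the distance between their log2 differences from the control mean. This measure uses the difference between groups, and so the genes named changed by about as much as the member, and in much the same mice, by construction. Nearest to Ccl2 were Pstpip1, a cytoskeletal adaptor of leukocytes (RMS 0.064), Nampt (0.080) and Abcg3 (0.080). For Ccl7 they were Cstb (0.079), Adgre4 (0.086) and C1ra (0.094), and for Ccl12 they were Trim12c (0.158), Plscr2 (0.167) and Nlrc5, a regulator of MHC class I genes (0.170). The distances were longest for Ccl12, the member with the largest spread among Aldara-treated mice. Nearest to Ccr2 were Slfn2 (0.084), Timp1, a metalloproteinase inhibitor (0.094), and Trim25 (0.094). For Ly6C probeset A they were Srgn, the proteoglycan of leukocyte granules (0.103), Samhd1 (0.103) and Anxa2 (0.111), and for probeset B they were Srgn (0.076), Emp1 (0.087) and the immunoproteasome subunit Psmb9 (0.089).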

How the data were processed

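Perfused whole brains of 5 Aldara-treated and 5 control mice were measured with 1 Affymetrix GeneChip Mouse Gene 1.0 ST array per mouse, each labelled a biological replicate. The authors deposited log2 values, normalised with RMA in the GeneSpring GX software, which removes a modelled background, quantile-normalises and summarises the probes of a probeset. The library file and software version are not given in the sources used here, nor is a batch or scan date, and scanner values were not used. The number of arrays limits the precision.

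Symbols came from the platform annotation. Of 28856 probesets, 21789 had 1 symbol, 1621 several and 5446 none, and 21698 of those with 1 symbol matched RefSeq genes (GRCm38.p6) by Entrez identifier. Groups were compared over the 23410 probesets with a symbol by limma (version 3.58.1, lmFit and eBayes, no covariate; R 4.3.3), with Benjamini-Hochberg adjustment over all of them, and called at an adjusted p under 0.05. The t-test of the methods was an alternative. A gene with several probesets was read from that of the highest mean. Differences between genes were tested within arrays by exact two-sided permutation over 252 relabelings. Their 95% intervals came from the t distribution and the pooled SD of the within-array differences (scipy 1.17.1), not from the permutation. The fit was also tested on simulated data.

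The members and all 17 lists were chosen with earlier results of these data known. Of the ligands paired with Ccl2, the paper had already reported Ccl3, Ccl5, Cxcl9 and Cxcl10 as raised on these arrays. Named genes are the members and their genomic neighbours, the receptors and ligands they were paired with, up to 3 called genes per list with the smallest p, all other receptors and scavengers, and the 3 genes most like each raised member. Gnai2, Rac1, Arrb1, Jun, Cd4, F13a1, Vcan, Lyve1, Gpr34, Mpo, S100a8, Aldh1l1, Slc1a3, Gja1, Lynx1 and Psca were named after their values were seen. Alternatives were other scalings, filters and models, array weights, a replicate block and leaving out each mouse. Promoter windows were those of RefSeq, matched by symbol and searched for 5 of 7 members. PCR, protein and flow cytometry data were not analysed here.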

Additional observations from a re-analysis of the deposited data

Results flagged for a closer look

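A mouse was set aside for a closer look where its gap to the nearest mouse of its group, divided by the range of the group, passed Dixon's 95% critical value of 0.71 for 5 samples. This covered 76 named probesets and 152 groups, without genes named only as genomic neighbours or after their values were seen. In all, 15 cases of a gene and a mouse were found this way, and chance gives about 1 in 20 groups. Genes measured in the same mice are not independent, so the count is not a test. In 10 of the 15 cases the mouse was Aldara replicate 5, as the highest of its group. Among the members this held for Ccr2, at a log2 value of 7.47 with the nearest Aldara-treated mouse at 6.86. The others were Ly6i at 9.03 (nearest 7.35), Slfn2 at 8.91 (8.20), Timp1 at 8.80 (8.26), Plscr2 at 8.25 (7.58), Nampt at 10.49 (10.20) and C1ra at 6.95 (6.63), of which Slfn2, Timp1, Plscr2, Nampt and C1ra were named for their likeness to a member and Ly6i is a neighbour of the Ly6C genes. Ccl5 was at 12.69 (12.22), Nkg7 at 8.75 (8.20) and Vcam1 at 9.80 (9.54) in the same mouse. Aldara replicate 3 was the highest for Cd8b1, at 6.67 (nearest 6.61), and for Ly6h, at 8.22 (8.12). In control mice, Adgre4 was lowest in replicate 5, at 5.45 (5.65), Csf3r was highest in replicate 4, at 7.37 (7.05), and Gfap was lowest in replicate 1, at 9.26 (9.40). The cause of these values was not tested.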

How the results depend on the processing

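Of 1278 values recomputed for 82 results, 1218 kept their direction, their side of the threshold and, for counts, a size within 1.5 times. No member called higher lost its call when any mouse was left out, with log2 differences of 0.47 to 0.60 for Ccl2, 0.40 to 0.55 for Ccl7, 0.49 to 0.80 for Ccl12, 1.15 to 1.34 for Ccr2, and 1.26 to 1.39 and 1.16 to 1.29 for Ly6C probesets A and B. By the methods' t-test Ccl12, at 0.68, missed the threshold (adjusted p = 0.051). Ccl8, which no setting called, turned to 0.01 after a shift of all Aldara arrays that set the median difference to 0, and without control replicate 2, and ranged from -0.05 to 0.01 over mice left out. For Ccr2 minus Ly6C probeset B, leaving out 1 mouse gave -0.01 (without Aldara replicate 5) to 0.09. Ccl12 minus probeset B missed the threshold without control replicates 3 or 4 (-0.51 and -0.53, adjusted exact p = 0.052 each).

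Replicate numbers did not pair the mice, since the same-number correlations of deviations ran from -0.11 to 0.249 and 2 of 5 control arrays correlated best with their own number. With the replicate number as a block, the pairs were tested by limma over the pairs instead of by permutation. Member pairs past the threshold then went from 16 to 15, the loss being probeset A minus B (0.10, adjusted p = 0.26 from limma). The block and the change of test cannot be told apart in this loss. Among lists, the block moved neutrophil markers higher to 2, non-classical monocyte markers lower to 1 and regulators of Ccl2 lower to 0, and it changed no call of a member.

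Keeping only probesets at or above the median mean value removed dim probesets by construction, so that 2 members were called higher. The counts higher then were 4 for classical and 1 for non-classical monocytes, 5 for tissue macrophages, 2 for other CC ligands, 1 for Ly6 genes, and 0 for T and NK cells, neutrophils and red cells and platelets. Counts lower were 0 for T and NK cells, border macrophages and microglia, and 2 for non-classical monocytes. Centring moved the counts lower to 2 each for neutrophils, non-classical monocytes, regulators of Ccl2 and signalling from CCR2, to 4 for plasmacytoid dendritic cells, and to 1 each for other receptors and for red cells and platelets. Quantile normalisation gave 3 neutrophil markers higher, and counts lower of 1 each for non-classical monocytes, other receptors and red cells and platelets, 3 for plasmacytoid dendritic cells and 2 for regulators. After the shift of the Aldara arrays, neutrophil markers higher were 4, border macrophage markers higher 2, Ly6 genes lower 1 and regulators lower 0. Non-classical monocyte markers lower were 1 with only 1-symbol probesets and 1 with an intensity trend. The t-test gave counts lower of 1 for neutrophils, 0 for regulators and 2 for signalling, and array weights 2 neutrophil markers higher.

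Over mice left out, counts ran from 1 to 2 for border macrophage markers higher (2 without control replicate 4), from 1 to 2 for neutrophil markers higher (2 without Aldara replicate 5), from 0 to 1 for non-classical monocyte markers lower (1 without control replicate 5 or Aldara replicate 1), from 1 to 2 for plasmacytoid dendritic cell markers lower (2 without control replicate 2 or Aldara replicate 3), from 0 to 1 for red cell and platelet markers lower (1 without control replicate 1), and from 0 to 1 for regulators lower. The causes were not tested, and without scanner values signal over background is unknown.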
